A study of Rattus norvegicus with 20 samples.

Results

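The genes that load glutamate into vesicles, take it up from the extracellular space, convert it to glutamine and move glutamine between cells were followed in the hypothalamic arcuate nucleus of female Sprague-Dawley rats on postnatal day 15. The genes were found by name on the array: 9 of 9 members had a probe, out of 25926 gene names, and 8 of the 9 passed the filter on dim probes, out of 17086 genes. The 20 samples came from 5 conditions with 4 samples each. SNS rats had been exposed to saline before birth, had no spasms and received saline after birth. BNS rats came from mothers given 2 betamethasone injections of 0.4 mg/kg on gestational day 15, and had no spasms and saline after birth. BYS, BYA and BYP rats had the same betamethasone exposure and infantile spasms triggered with N-methyl-D-aspartic acid (NMDA) on postnatal days 12, 13 and 15. By the study's methods these rats were assigned after the first trigger to saline (BYS), ACTH (BYA, 0.3 mg/kg per dose) or PMX53 (BYP, 0.6 mg/kg per dose). PMX53 is an antagonist of the complement receptor C5ar1. Betamethasone is thus shared by all conditions except SNS, and no condition had spasms or a treatment without it. The study also profiled males, which are not listed in this series, and the labels do not say which samples are littermates.

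Glutamate released at a synapse is cleared by sodium-driven transporters, above all by Slc1a2 (GLT-1) and Slc1a3 (GLAST) on astrocytes and by Slc1a1 (EAAC1) on neurons. Astrocytes turn it into glutamine with glutamine synthetase, Glul. Glutamine leaves the astrocyte and enters neurons through system A carriers, among them Slc38a1 and Slc38a2, and is split back to glutamate, which Slc17a6, Slc17a7 or Slc17a8 (VGLUT2, VGLUT1 and VGLUT3) pack into vesicles. In the hypothalamus Slc17a6 is the usual vesicular transporter, whereas Slc17a7 is typical of cortex and hippocampus.

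Between BNS and SNS, Slc38a2 was 1.52-fold higher, and Slc1a2 and Slc38a1 were 1.72-fold and 1.69-fold lower in BNS. These 3 of 8 members (37.5%) passed an adjusted p of 0.05, which 28.6% of all genes tested did as well. Slc38a2 was also higher than in SNS in each of BYS, BYA and BYP, and Slc38a1 was lower in BYS. Among the 4 conditions that share betamethasone no member was called, in any of 6 comparisons. With limma, 0 to 3 members had an unadjusted p under 0.05 there, and the 2 tests with the smallest p were those of Slc38a1 between BYP and BYS and of Slc1a2 between BYP and BNS.

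Levels are log2 signals of the array, quantile normalized over the 20 samples, so that they compare samples for 1 gene and not genes with each other. The precision is limited by the number of arrays, and p-values measure the spread between these samples. In each sample 51.5% to 84.5% of spots were well above background. Spots were on the median 6.95 times as bright as their background in SNS samples, against 16.0 times in BNS and BYS samples, 7.43 times in BYA samples and 9.06 times in BYP samples. No slide held samples of more than 1 condition, and differences between conditions cannot be told apart from differences between slides. The dye label of BYA replicate 3 disagrees with the sample order that its raw data name gives. Its values may thus be those of the other animal on that array, which the name labels as an SNS male. Without BYA replicate 3, the calls below for Slc38a2 remained in BYA, and Slc17a6 was called in addition. All 10 arcuate marker genes were measured, and none of them was called between BNS and SNS. Against SNS, 2 were called lower in BYS and 1 higher in BYA, and none in BYP. Agrp lay at 14.35 ± 0.46 (SD, n = 4) in SNS and Pomc at 14.68 ± 0.32, whereas of 8 pituitary genes 3 passed the filter. These were Lhb and Cga, at 11.24 ± 0.21 and 7.84 ± 0.33 in SNS and not called in BNS, and Pitx1, which was called lower in BNS (10.22 ± 0.09, against 10.71 ± 0.07 in SNS, limma adjusted p = 0.0139). Their part in the members' differences was not tested.

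**Figure D1:**
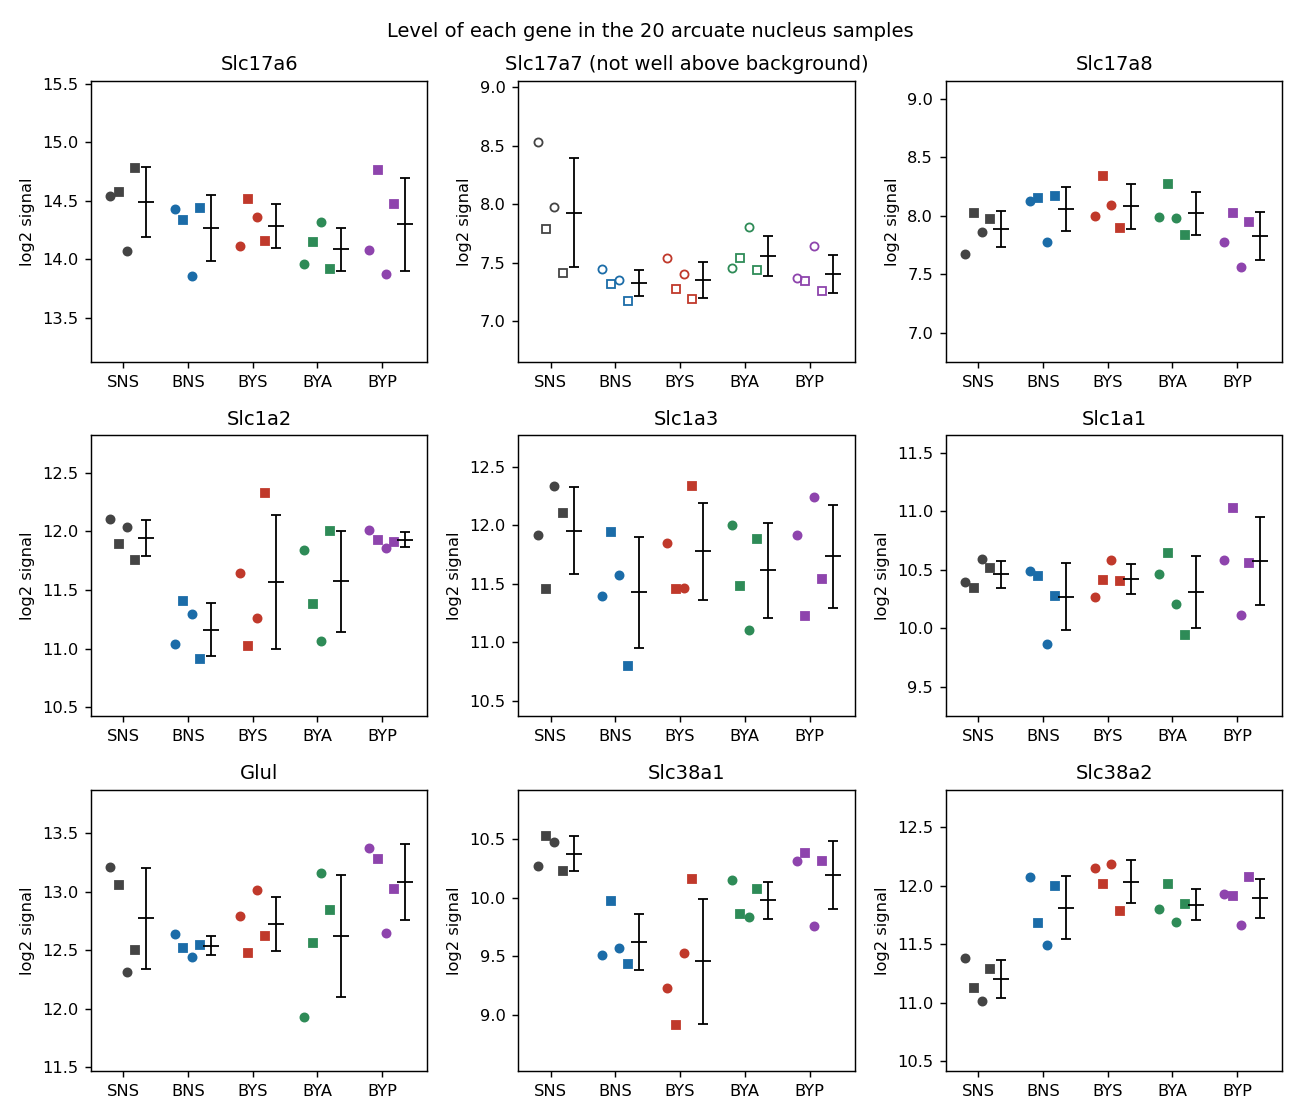
Log2 signal of the 9 genes in each of the 20 samples (circles Cy3, squares Cy5), with the mean and SD of the 4 samples per condition in black. The vertical range has the same width in every panel, and Slc17a7 is drawn open because no sample was well above background. All 4 SNS samples lie below all other samples for Slc38a2, and the 4 BNS samples lie below the 4 SNS samples for Slc1a2 and Slc38a1.

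The vesicular transporters differed in how they were measured. Slc17a6, which loads glutamate into synaptic vesicles, was bright in all 20 samples and averaged over 10 spots. Its log2 signals were 14.54, 14.58, 14.07 and 14.78 in SNS and 13.96, 14.14, 14.32 and 13.91 in BYA. The 2 conditions overlapped through SNS replicate 3, and BYA was lower by a log2 fold change of -0.41 (SE 0.17, limma adjusted p = 0.0704), short of the threshold. Without SNS replicate 3 the log2 fold change was -0.51 (adjusted p = 0.0362), and without BYA replicate 3 it was -0.54 (adjusted p = 0.0224). The order of the means was SNS, BYP, BYS, BNS and BYA, and no pair of neighbours differed beyond its spread.

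Slc17a8 marks a smaller set of neurons that often use a second transmitter. It was well above background in 13 of the 20 samples, with 4 of 4 in BYS, 3 in BNS and 2 in each of SNS, BYA and BYP, so it passed the filter through BYS alone. Its levels ran from 7.56 to 8.34 and the means of the conditions from 7.83 ± 0.21 in BYP to 8.08 ± 0.19 in BYS (log2 signal, SD, n = 4). Slc17a7 was not well above background in any of the 20 samples, with log2 signals from 7.18 to 8.53, and no fold change is given for it. The 4 SNS values of Slc17a7 (8.53, 7.79, 7.97 and 7.41) were the widest of the 5 conditions. Of 6 marker genes of cortex and hippocampus, Neurod2 and Tbr1 did not pass the filter either, and the other 4 did.

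Among the 3 uptake transporters, Slc1a2 was the one called. This is the transporter that clears most glutamate in the forebrain. Its log2 signals were 12.10, 11.89, 12.03 and 11.76 in SNS and 11.04, 11.40, 11.30 and 10.91 in BNS. All BNS values lay below all SNS values, as they did in 16.9% of all genes tested. The log2 fold change was -0.79 (SE 0.23, limma adjusted p = 0.0166). The call was lost with arrays treated as random blocks (adjusted p = 0.0867), with the scanner software's processed signals (-0.69, adjusted p = 0.0753) and without BNS replicate 4 (-0.69, adjusted p = 0.0563).

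In BYS and BYA Slc1a2 was spread more widely than in SNS and BNS, whereas in BYP, which also had spasms, it was not. The 4 BYS values were 11.64, 11.02, 11.26 and 12.33, from the level of BNS to above every other sample of the study. The 4 BYA values were 11.84, 11.38, 11.07 and 12.01, and thus also overlapped with both SNS and BNS. The 4 BYP values, 12.01, 11.93, 11.86 and 11.91, lay close together, with an SD of 0.06 against 0.57 in BYS. All BYP values were above all BNS values, which held for 6.33% of genes, with a log2 fold change of 0.77 (SE 0.23), yet the adjusted p of 0.0908 missed the threshold. Fitted on these 2 conditions alone, the same difference had an adjusted p of 0.0361. BYP and SNS differed by -0.02, with a 95% interval from -0.50 to 0.46.

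Slc1a2 had 2 probes, 1 listed in the files for 2 RefSeq transcripts of the gene and the other for only 1 of them. Between BNS and SNS both were called, with log2 fold changes of -0.68 (SE 0.20, limma adjusted p over all probes 0.0151) for the first and -0.89 (SE 0.27, adjusted p = 0.0222) for the second. The difference between the 2 probes within a sample averaged -0.14 ± 0.16 in SNS and 0.07 ± 0.21 in BNS (log2, SD, n = 4). Its largest spread was in BYA, at 0.23 ± 0.36, where the probe for 1 transcript was at 10.76 in replicate 3. Over 10 comparisons, two-sided exact permutation tests of this difference gave p from 0.114 to 0.686 (smallest adjusted p 0.514), where 4 against 4 samples allow no p below 0.0286.

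**Figure D2:**
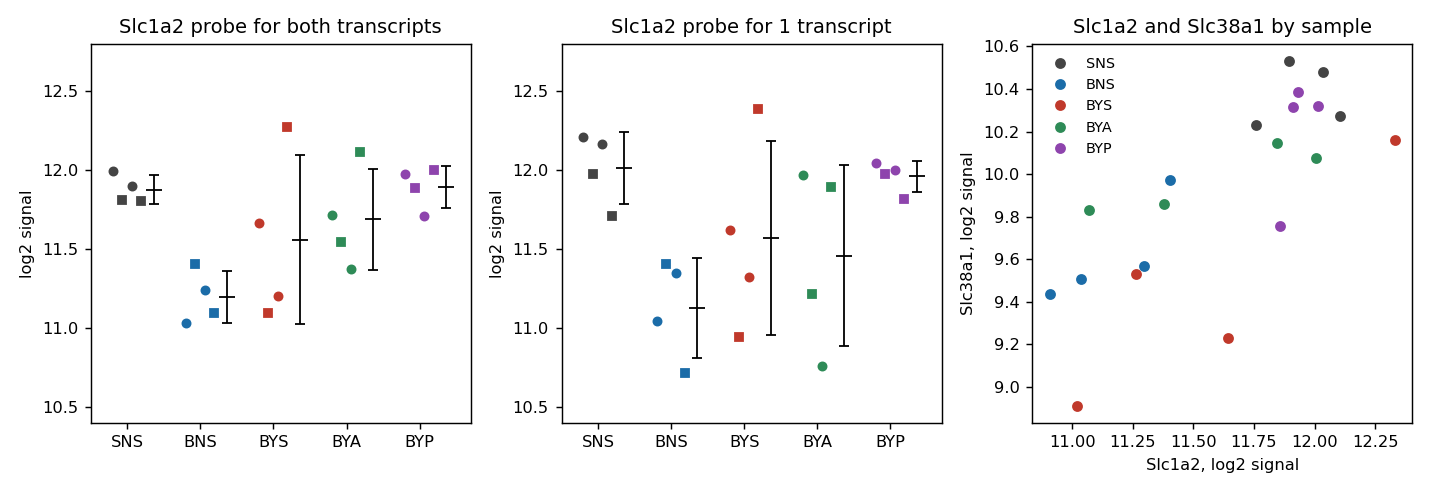
Log2 signals of the 2 Slc1a2 probes in the 20 samples (left and middle; circles Cy3, squares Cy5, mean and SD in black), and of Slc1a2 against Slc38a1 (right, 1 point per sample). The BYP samples of both probes lie at the level of SNS and the BNS samples below it, and in the right panel the BYS samples stretch from the lowest Slc38a1 value, 8.91, to 10.16.

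Slc1a3, the second astrocyte transporter, was not called in any comparison. Its log2 signals were 11.92, 11.46, 12.33 and 12.10 in SNS and 11.40, 11.94, 11.57 and 10.80 in BNS. The conditions overlapped, and the log2 fold change of -0.53 had a 95% interval from -1.10 to 0.05 (limma adjusted p = 0.154). These values are those of the dimmer of 2 probes, because the brighter one was marked as an outlier spot in 2 SNS samples. The brighter probe ran from 14.91 to 15.64, with a mean of 15.50 in the other 2 SNS samples and 15.33 ± 0.19 (n = 4) in BNS, and it was not called by itself either.

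Slc1a1, the transporter of neurons, ranged from 9.86 in BNS replicate 3 to 11.03 in BYP replicate 2. The means of the conditions lay between 10.27 ± 0.29 in BNS and 10.57 ± 0.38 in BYP (log2 signal, SD, n = 4), and neighbours in the order BYP, SNS, BYS, BYA and BNS overlapped. The difference between BYP and BNS was 0.30, with a 95% interval from -0.07 to 0.67 (limma adjusted p = 0.389).

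Glul, which makes glutamine from glutamate and ammonia in astrocytes, had its highest mean in BYP. The 4 values were 13.38, 13.28, 12.65 and 13.02 in BYP and 12.64, 12.52, 12.44 and 12.55 in BNS (log2 signal). The lowest BYP value lay just above the highest BNS value, and all BYP values were above all BNS values in 6.33% of genes. The log2 fold change of Glul was 0.54 (95% interval 0.05 to 1.04, limma adjusted p = 0.236). The 4 SNS values (13.22, 13.06, 12.31 and 12.50) and the 4 BYA values (11.93, 12.57, 13.16 and 12.84) spanned the BNS values. Between SNS and BNS the log2 fold change was -0.23, with a 95% interval from -0.73 to 0.26.

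The glutamine carriers Slc38a1 and Slc38a2 moved in opposite directions in BNS and BYS against SNS. In the RefSeq annotation of the rat (GRCr8) they are neighbours on the same strand of chromosome 7, with 61.0 kb between the windows printed here. Since these 2 genes and Slc1a2 carry the calls, the 250 bases before each of their starts are printed 5′ to 3′ from RefSeq. Windows were found for 8 of the 9 members. Slc1a2 has 2 annotated starts.

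Slc38a1, chr7:129681402-129681651, minus strand: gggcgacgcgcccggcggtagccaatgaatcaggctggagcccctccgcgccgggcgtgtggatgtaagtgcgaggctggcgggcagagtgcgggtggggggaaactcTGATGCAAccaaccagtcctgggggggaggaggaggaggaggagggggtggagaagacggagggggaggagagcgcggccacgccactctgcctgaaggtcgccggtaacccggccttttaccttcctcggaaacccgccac
Slc38a2, chr7:129742620-129742869, minus strand: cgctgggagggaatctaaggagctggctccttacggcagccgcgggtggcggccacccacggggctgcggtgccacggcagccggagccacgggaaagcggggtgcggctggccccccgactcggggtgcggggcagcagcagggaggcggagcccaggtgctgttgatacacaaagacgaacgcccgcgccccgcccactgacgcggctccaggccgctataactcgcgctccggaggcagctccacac
Slc1a2, first start, chr3:109459859-109460108, plus strand: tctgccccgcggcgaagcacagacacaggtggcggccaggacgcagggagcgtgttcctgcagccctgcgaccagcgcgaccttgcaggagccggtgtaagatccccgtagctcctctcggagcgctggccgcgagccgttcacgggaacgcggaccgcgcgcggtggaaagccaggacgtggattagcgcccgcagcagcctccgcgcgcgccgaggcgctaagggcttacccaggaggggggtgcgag
Slc1a2, second start, chr3:109507697-109507946, plus strand: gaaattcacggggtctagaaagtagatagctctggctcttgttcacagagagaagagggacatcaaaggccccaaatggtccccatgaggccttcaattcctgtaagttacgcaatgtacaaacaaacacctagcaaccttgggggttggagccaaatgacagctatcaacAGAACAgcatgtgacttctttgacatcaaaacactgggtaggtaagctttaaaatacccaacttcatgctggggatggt

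Capitals mark matches to 3 short motifs searched on both strands, none of which overlap here: AGAACA, a half-site of the glucocorticoid receptor, TTGCATCA, a composite site of C/EBP and ATF factors, and TGACGTCA, the cAMP response element. The window of Slc38a1 holds TTGCATCA on the other strand, 142 to 135 bases before the start, which 0.693% of 33465 windows do. The second window of Slc1a2 holds AGAACA 79 to 74 bases before the start, as do 17.5% of windows. TGACGTCA, found in 1.59% of windows, is in none of the 4, and the Slc38a2 window holds none of the 3. A match is a description of the letters only.

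Slc38a2, the carrier that cells raise when amino acids run short, was the member called in all 4 comparisons with SNS. Its log2 signals were 11.38, 11.12, 11.02 and 11.29 in SNS. They were 12.07, 11.68, 11.49 and 11.99 in BNS, and 12.15, 12.01, 12.19 and 11.78 in BYS. They were 11.80, 12.02, 11.69 and 11.84 in BYA, and 11.93, 11.91, 11.67 and 12.07 in BYP. All 16 samples with betamethasone were above all 4 SNS samples, as in 7.81% of genes, while the 4 conditions with betamethasone overlapped. The log2 fold change against SNS was 0.61 in BNS, 0.83 in BYS, 0.64 in BYA and 0.69 in BYP (SE 0.14 in each, limma adjusted p from 0.000246 to 0.00320). BYS and BNS differed by 0.22, with a 95% interval from -0.06 to 0.51.

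The calls for this rise depended on the scaling. With each sample scaled to the same median, the log2 fold change of Slc38a2 in BNS against SNS was 0.29 (adjusted p = 0.501), where the median of all genes had moved to -0.14 from -0.04. With the scanner software's processed signals it was 0.25 (adjusted p = 0.301). Median scaling left the log2 fold change at 0.90 in BYS (adjusted p = 0.0590) and 0.62 in BYA (adjusted p = 0.201), and lowered it to 0.23 in BYP (adjusted p = 0.550). With the processed signals these 3 were 0.40, 0.22 and 0.34. Slc38a2 was thus not called in any of the 4 comparisons with SNS under these 2 scalings, and all 4 kept their sign.

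Slc38a1, a carrier found on many neurons, had log2 signals of 10.27, 10.53, 10.48 and 10.23 in SNS. They were 9.51, 9.97, 9.57 and 9.44 in BNS and 9.23, 8.91, 9.53 and 10.16 in BYS, all below the 4 SNS values. In either direction, 33% of genes had no overlap between BNS and SNS, and 27.7% had none between BYS and SNS. The log2 fold change against SNS was -0.76 in BNS (SE 0.20, limma adjusted p = 0.0102) and -0.92 in BYS (SE 0.20, adjusted p = 0.00295). With the processed signals the first was -0.74 and not called (adjusted p = 0.0813).

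The mean levels of Slc38a1 in BYA and BYP lay nearer to SNS than those of BNS and BYS. SNS, BYA and BYP samples also had dimmer spots over background (medians 6.95, 7.43 and 9.06) than BNS and BYS samples (16.0 in each). The part of this in the levels was not tested. The 4 BYA values were 10.15, 9.86, 9.83 and 10.07, and the 4 BYP values were 10.32, 10.39, 9.76 and 10.31. BYS replicate 4 lay above the 4 BYA samples and BYP replicate 3, and the other 3 BYS samples were below all treated samples. The log2 fold change against BYS was 0.74 in BYP (95% interval 0.31 to 1.16, limma adjusted p = 0.310) and 0.52 in BYA (0.10 to 0.95, adjusted p = 0.533). Without BYS replicate 2 the latter was 0.30 (adjusted p = 0.888). Neither was called, and BYP and BYA differed by 0.22 (-0.21 to 0.64). Against SNS, Slc38a1 was lower by 0.40 in BYA (log2 fold change -0.40, adjusted p = 0.140), with no overlap, as in 27.5% of genes in either direction. The log2 fold change in BYP against SNS was -0.18 (adjusted p = 0.514). BYP was higher than BNS by 0.57 (adjusted p = 0.148).

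**Figure D3:**
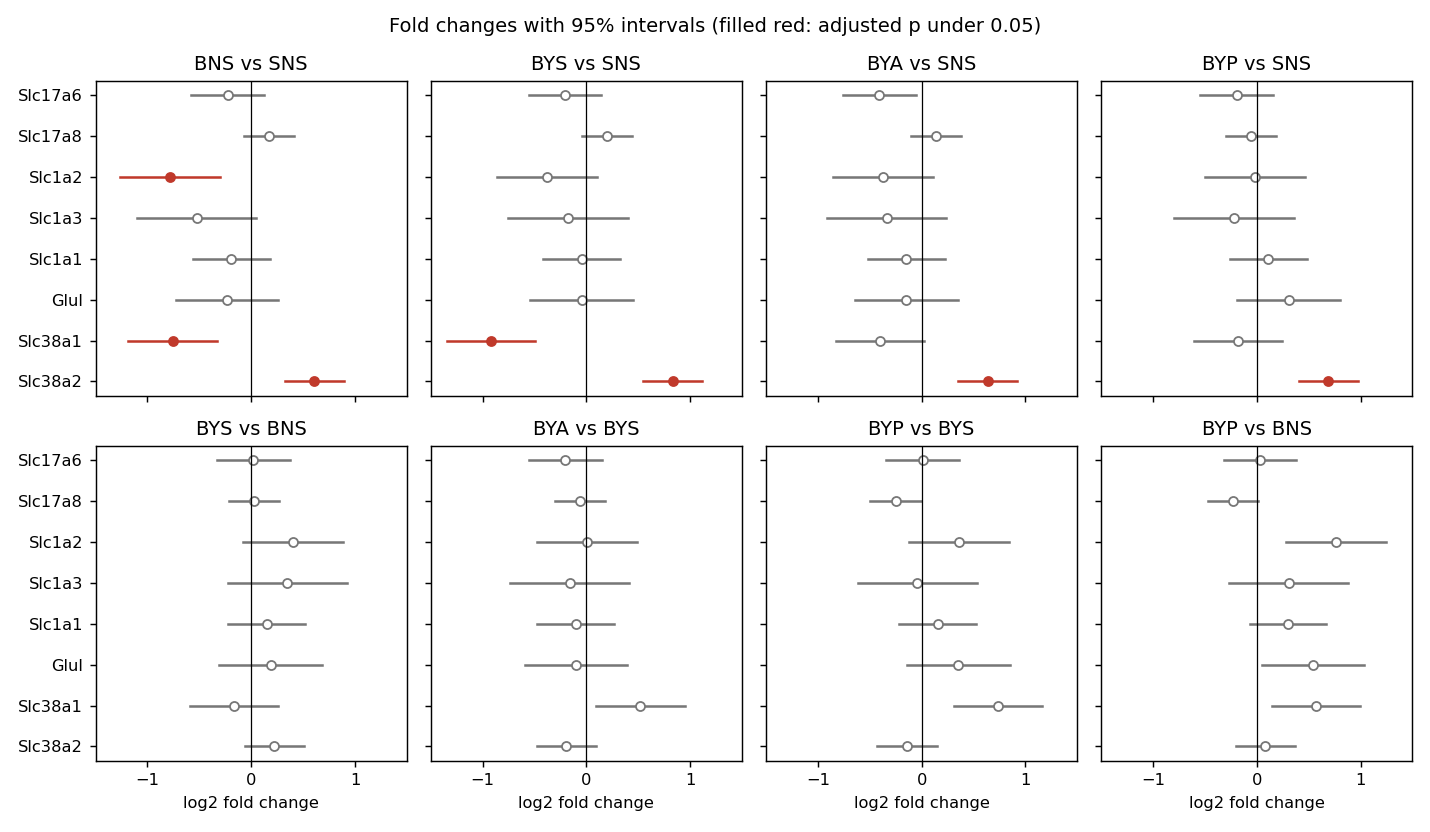
Log2 fold changes of the 8 measured members with 95% intervals in 8 of the 10 comparisons, filled red where the adjusted p was under 0.05. The top row, against SNS, shows Slc38a2 to the right in all 4 panels, and the bottom row holds no called member.

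Beside the share of all genes called, the counts of members were as follows. Against SNS, 2 of 8 members were called in BYS (27.1% of all genes), 1 in BYA (31.3%) and 1 in BYP (28.9%), and all 4 comparisons share the SNS samples. The median log2 fold change of the 8 members in BNS against SNS was -0.23, beside -0.04 for all genes tested. Between BYS and BNS, the comparison for spasms, 0 members were called, beside 0.0293% of all genes, and 0 had an unadjusted p under 0.05, beside 6.92% of genes (limma, as in the following). For ACTH, BYA against BYS had 0 called members (0% of genes) and 1 at an unadjusted p under 0.05 (8.07%). For PMX53, BYP against BYS had 0 called (0.0351%) and 2 at an unadjusted p under 0.05 (8.51%), Slc38a1 and Slc17a8, the second of which passed the filter through BYS alone. BYP against BYA had 0 called (0.158%) and 0 unadjusted (13.6%), and BYA against BNS likewise had 0 called (0.117%) and 0 unadjusted (13.1%). BYP against BNS had 0 called (1.5%) and 3 unadjusted (17.8%). Fitted with the slide as a random block, 3 members passed for BYP against BNS, where 15.5% of all genes did, and 1 for BYP against BYS, where 2.48% did. As no slide held more than 1 condition, this fit cannot separate slides from conditions, and nothing is concluded from its counts. The methods' t-test at 0.05 without adjustment called 3 members and 14.9% of genes between BYP and BNS, and 0 members after adjustment.

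The other genes of these routes were followed in 5 lists, from which 51 genes are reported, 47 of them measured. Between BNS and SNS, 7 were higher and 4 lower, with a median log2 fold change of -0.04. These are 23.4% of the genes measured, beside 28.6% of all genes tested, the share that also stands beside the counts by list below. In the 6 comparisons without SNS 0 were called. Bcat1, which transfers the amino group of branched-chain amino acids to make glutamate, rose from 14.00 ± 0.20 in SNS to 15.65 ± 0.05 in BNS (SD, n = 4), a log2 fold change of 1.65 (limma adjusted p = 8.27e-08). Of 14 genes of glutamate and glutamine metabolism it was the only one called higher. The 4 called lower, of which Got2, Pc and Aldh18a1 were named after their values were seen, were Glud1 (glutamate dehydrogenase), Got2 (the mitochondrial aspartate transaminase), Pc (pyruvate carboxylase) and Aldh18a1 (proline synthesis from glutamate), with log2 fold changes from -0.51 to -0.45. Glud1 had a value in only 2 SNS samples, 15.10 and 15.89 (log2 signal), and the lower of these lay within the BNS range of 14.67 to 15.17. Without SNS replicate 4 its log2 fold change was -0.28 (adjusted p = 0.219), and with processed signals it was 0.05 (adjusted p = 0.852). Got2 and Pc were not called with processed signals either (-0.13 and -0.12).

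Nedd4l, a ubiquitin ligase known to act on transporters at the membrane, rose by 0.89 (limma adjusted p = 0.000859) and was 1 of 3 higher among 11 supporting genes. Its log2 fold change was 0.38 with processed signals and 1.48 from only the probes well above background in all 20 samples, called in both. Slc7a8, an exchanger of glutamine and other neutral amino acids, rose by 0.63 (adjusted p = 0.00944), as 1 of 2 higher of 7 other glutamine carriers. Slc25a18, the mitochondrial glutamate carrier of astrocytes, rose by 0.63 (adjusted p = 0.00349), as the 1 of 10 other glutamate carriers called. Slc7a8 and Slc25a18 were not called under median scaling (0.29 and 0.37) or with processed signals (0.28 and 0.32). Of the 5 genes of the GABA branch reported, 0 were called between BNS and SNS.

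**Figure D4:**
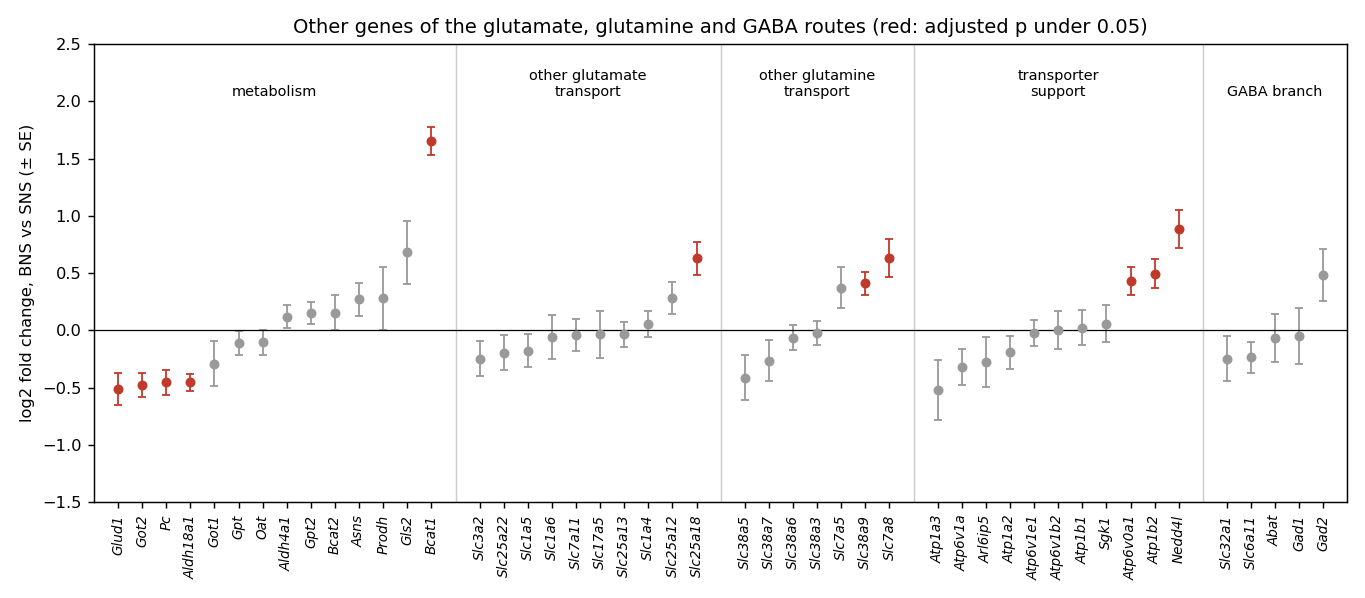
Log2 fold changes (± SE) between BNS and SNS of the 47 measured genes in the 5 lists of glutamate, glutamine and GABA genes, with called genes in red. Bcat1 stands above 1, and the 4 called lower genes all belong to the metabolism list.

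In tissue RNA, fewer cells of a type and less RNA per cell cannot be told apart. The 12 astrocyte markers, none of which is a member, had a mean log2 signal per sample of 11.27 to 11.56 in SNS and 11.61 to 11.67 in BNS. Of the 12, 3 were called higher in BNS and 1 lower, where 28.6% of all genes tested were called. Their median log2 fold change was -0.11, so that the mean and the median differ in sign. Of the 3 called higher, Ndrg2 had values in 3 SNS samples and Mlc1 in 2, and the mean per sample leaves out missing values. The mean of the 9 neuron markers was 12.46 to 12.92 in SNS and 12.66 to 12.82 in BNS, with 1 called in each direction. The part of the cell makeup in the differences of Slc1a2, Slc38a1 and Slc38a2 was not tested.

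The genes whose levels followed the members most closely were sought over the 20 samples among 16299 genes without a missing value, after removal of the dye effect. Pearson's r describes these samples only, which share arrays, slides and conditions. Slc38a2 was closest to Slc44a1 (0.94), a choline transporter, and Prkdc (0.93), a DNA repair kinase. Slc17a6 was closest to Serpinb6b (0.92) and Ywhaq (0.87), a 14-3-3 protein. Slc38a1 was closest to Slc45a1 (0.87), a sugar transporter, and an unnamed probe (0.84). Slc1a2 was closest to RGD1562339 (0.89) and an unnamed transcript (0.88). For Slc1a3 these were Bop1 (0.86) and Mindy2 (0.80), for Slc1a1 Ak4 (0.85) and Btbd10 (0.83), for Slc17a8 Ptbp2 (0.85) and Cdh9 (0.85), and for Glul an unnamed probe (0.85) and Vasp (0.84). No member was among the 2 closest genes of another.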

How the data were processed

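Arcuate nuclei of 20 female rats were profiled on 11 two-colour Agilent arrays on 6 slides. On 9 arrays both channels hold rats of 1 condition. BYA replicates 3 and 4 each share an array with a sample of another series, whose 82 columns were not used. The mean spot signals, local backgrounds and processed signals deposited by the authors are intensities written by Agilent Feature Extraction (10.7.3.1 in the submitters' processing notes, 11.5.1.1 per the file headers). Other deposited columns are 0 or 1 flags of spots.

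Each channel was taken as 1 sample. Signals were corrected with normexp (offset 50) and quantile normalized as log2 values over the 20 samples. Outlier spots (1.19% of values) were left out and spots of a probe averaged. Probes were kept if, in every sample of some condition, a share of 0.5 or more of their spots exceeded background clearly (19883 of 30367 probes, 17086 genes). Complete probes of the same gene were averaged. Symbols came from RefSeq by accession for 61.4% of probes. The 10 comparisons were tested in 1 limma fit (R 4.3.3, limma 3.58.1, data.table in version 1.17.8, statmod 1.5.0) with the dye as covariate, and p-values were adjusted by Benjamini-Hochberg over all genes, with "called" meaning an adjusted p under 0.05. On simulated data of 16299 genes for BNS against SNS, log2 changes of 0.5, 1 and 2 were recovered in 28.4%, 85.1% and 100% of genes. Only 67, 67 and 66 genes were moved by these sizes, with errors drawn independently. In the data 28.6% of genes were called and the array correlation was 0.365, so these shares are not the power here.

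The members, lists and tests were chosen with earlier results of these data known. All members are named, with the 2 genes most like each, up to 5 list genes per comparison by size among those called, and marker genes as checks. Some list genes are not reported here. Other genes named were chosen after their values were seen. Alternatives covered scaling, background, filter, probes, dye, array, slide, replicate number, samples in the fit, the methods' t-test and each sample left out. Leaving out both BYA samples on shared arrays was added after the data were seen.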

Additional observations from a re-analysis of the deposited data

Results flagged for a closer look

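Of 50 sets of 4 samples looked at for the members (1 per gene or Slc1a2 probe and condition), 2 held a sample that stood far from the other 3, and chance gives about 1 in 20. Slc17a8 was at 7.78 in BNS replicate 3, against 8.12 in the nearest of the other 3 samples, and this was the 1 BNS sample in which it was not well above background. Slc38a1 was at 9.76 in BYP replicate 3, against 10.31 in the nearest (both log2 signal). Without that sample the difference of Slc38a1 between BYP and BYS was not called either.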

How the results depend on the processing

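Of 224 counts of called members recomputed under other settings, 207 stayed within 1.5 times the count reported and 17 did not. Of 487 fold changes of named genes, 1 turned its sign where either value was called: Glud1 between BNS and SNS was at 0.0522 with processed signals, against -0.51. A further 31 lost their call and 12 gained one. Median scaling called 1 member in BYS against SNS and 0 in BYA and BYP against SNS. It called 1435, 1389 and 4902 of 17083 genes there, against 4630, 5342 and 4937 in the main fit. Processed signals called 0, 1, 0 and 0 members in BNS, BYS, BYA and BYP against SNS. They called 2333, 2309, 1792 and 2776 of 17083 genes in these comparisons. Under median scaling the share of all calls that were higher in BNS than in SNS was 29.8%, against 52.9%. Without the filter 4, 3 and 2 members were called in BNS, BYS and BYP against SNS, beside 6240, 5678 and 5799 of 25923 genes. Each of these counts includes Slc17a7, which was not well above background in any sample. With the slide as a random block (correlation -0.128), 1 member was called between BYP and BYS (2.48% of genes) and 3 between BYP and BNS (15.5%). Between BYA and SNS it called 2. That fit cannot separate slides from conditions, since no slide held more than 1 condition. With only the 2 conditions in the fit, 1 was called between BYP and BNS, beside 0.989% of all genes. The methods' t-test at 0.05 called 3 between BYP and BNS (14.9% of genes) and 2 between BYA and SNS, and after adjustment 1 between BYS and SNS. For the slide fit and the t-tests, the counts against SNS have no share of all genes beside them, and nothing is concluded from them. With the array as a random block (correlation 0.365), Slc1a2 was no longer called between BNS and SNS. With 1 sample left out, the count against SNS was 2 to 3 for both BNS and BYS, 1 to 2 for BYA and 1 for BYP, and 0 in the other 6 comparisons. Without SNS replicate 3 or BYA replicate 3, Slc17a6 was the added call in BYA. Without both BYA samples on shared arrays, 1 member was called against SNS, at a log2 fold change of 0.71 for Slc38a2. Replicate numbers did not pair the samples: deviations of same-numbered samples correlated at 0.0031 on average (-0.239 to 0.280), and with the replicate block in place of the dye 3, 2, 1 and 1 members were called against SNS and 0 elsewhere. The cause was not tested for any of these changes. Slc17a8 was well above background in 13 of 20 samples and Slc17a7 in none, which limits what their values show.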
